A study of Homo sapiens with 14 samples.

Results

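Some guides of a genome-wide CRISPR interference library are listed under more than 1 gene. They were taken as the targeting guides whose strand and position, as written in their names, occur in the same sublibrary under more than 1 gene symbol. This gave 305 positions with 617 listed guides, 0.687% of the 89835 targeting guides and part of 91463 guides listed in all. The 305 positions belong to 176 genes in 88 gene sets, all of them pairs except the trio BAGE3, BAGE4 and BAGE5. H1 held 1 such position, H2 12, H3 90, H5 58, H6 34 and H7 110. The choice used names and no measured value.

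CRISPR interference uses a catalytically dead Cas9 fused to a KRAB repressor domain, which a guide RNA brings to the start of a gene to silence it. Repression spreads over the chromatin around the guide, so a guide near a bidirectional promoter, or at a start that a gene shares with a readthrough transcript, can lower more than 1 gene. Recent gene copies pose another form of the same problem, since a guide that matches both copies has more than 1 place to bind. In each case the measured value belongs to the guide, and the gene name attached to it is a choice of the library's annotation.

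The screen was run in HEK293 FLP-In cells, a kidney-derived human line into which transgenes can be placed at a fixed site. The cells carried SSF-DOR-APEX2, a tagged delta opioid receptor fused to the peroxidase APEX2, and dCas9-KRAB-BFP in a clonal population. They received the hCRISPRi-v2-top5 library as 7 sublibraries, H1 to H7, at a multiplicity of infection of 0.2. They were selected with puromycin at 0.75 µg/ml for 3 days and grown for 8 days in all. All groups were treated with 10 µM DADLE, an opioid peptide agonist, for 90 min, and then given Amplex UltraRed (100 µM) and hydrogen peroxide (50 µM), which yields a fluorescent product where APEX2 is active. The top (bright) and bottom (dim) fluorescence quartiles were collected by sorting, and guides were counted from the DNA of each. Each group was 1 library, and no unstimulated library was compared. There was therefore no replicate check. The p-values of targets compare guides within 1 sort, and no p-value here measures the spread between repeated sorts. Of the 14 libraries the 12 outside H4 were compared, with total counts from 18054418 (bottom of H6) to 34636612 (top of H2). The SD of the non-targeting guides, which match no human gene, ran from 0.215 in H3 to 0.333 in H7 on the log2 scale.

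The value of a guide was the log2 ratio of its share of the top library to its share of the bottom library, set to 0 at the sublibrary's non-targeting median. A positive value means that cells with the guide were more frequent among bright cells. A position was called past the fold at a log2 ratio of 0.5 or more in either direction. Its 95% interval is exact (Clopper-Pearson) and covers counting error only, since amplified reads were not marked by molecule and are not independent.

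The promoters of 4 of the genes that the results turn on are given here, because guides listed under each of these genes also stand under another name. They are RefSeq sequences on GRCh38.p14, each ending at the base before the gene's outermost listed start, 5′ to 3′ on the gene's strand. The build of the guide positions was not given in the sources used here, so no guide was placed on them. The RBM14 start is also that of the readthrough gene RBM14-RBM4, the HSPE1 start that of HSPE1-MOB4, and the COMMD3 start that of COMMD3-BMI1. The HSPE1 window holds the 104 bases between its start and the opposite-strand start of HSPD1. Capitals mark the GC box GGGCGG and the CCAAT box CCAAT on either strand.
PEX19, chr1:160285152-160285401, - strand: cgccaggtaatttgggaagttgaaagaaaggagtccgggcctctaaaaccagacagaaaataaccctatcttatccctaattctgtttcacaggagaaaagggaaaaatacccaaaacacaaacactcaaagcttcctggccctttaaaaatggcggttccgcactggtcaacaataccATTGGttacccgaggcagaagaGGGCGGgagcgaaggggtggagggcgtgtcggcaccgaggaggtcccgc
RBM14, chr11:66616380-66616629, + strand: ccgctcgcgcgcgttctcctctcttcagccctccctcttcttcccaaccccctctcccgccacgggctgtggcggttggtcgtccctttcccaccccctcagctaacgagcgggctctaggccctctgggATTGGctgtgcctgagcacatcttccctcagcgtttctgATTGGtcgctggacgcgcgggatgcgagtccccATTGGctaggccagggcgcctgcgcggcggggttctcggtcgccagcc
HSPE1, chr2:197500275-197500378, + strand: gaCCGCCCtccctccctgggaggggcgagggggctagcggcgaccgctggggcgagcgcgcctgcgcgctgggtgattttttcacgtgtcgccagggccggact
COMMD3, chr10:22316138-22316387, + strand: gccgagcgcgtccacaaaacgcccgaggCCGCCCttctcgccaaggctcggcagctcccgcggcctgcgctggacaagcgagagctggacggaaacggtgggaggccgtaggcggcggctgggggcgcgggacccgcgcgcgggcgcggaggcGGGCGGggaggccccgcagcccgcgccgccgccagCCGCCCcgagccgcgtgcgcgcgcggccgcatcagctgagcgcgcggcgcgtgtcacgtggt

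The 4 windows differed in these letters. COMMD3 had 3 matches to GGGCGG, PEX19 and HSPE1 had 1 each, and RBM14 had 0. CCAAT was found 3 times in RBM14, 1 time in PEX19 and 0 times in the other windows. Of 34943 promoter windows of 250 bases in the table, 42.5% held GGGCGG and 32.0% held CCAAT. Of windows of 104 bases, 31.8% and 18.6% did. The ETS motif CCGGAAG, the cyclic AMP element TGACGTCA and the heat shock core GAANNTTC, searched on both strands, were not in these 4 windows. G and C made up 80.0% of the COMMD3 window, 74.0% of the HSPE1 window, 67.6% of the RBM14 window and 50.8% of the PEX19 window.

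The entries of a shared position carried the same measurement. At 304 of 305 positions all entries had equal counts in the bottom library and equal counts in the top library. The exception paired genes of different chromosomes. RBFOX2, a splicing regulator on chromosome 22, had 2470 bottom and 1880 top counts at position 36236288 in H5. U2AF1L4, a splicing factor gene on chromosome 19, had 397 and 300 counts at the same position number and strand. Their log2 ratios, -0.09 and -0.10, did not differ in Fisher's exact test on these counts (two-sided p = 0.934). The names hold no chromosome, so the rule joins entries of equal position number on different chromosomes. The other pair on different chromosomes, TMEM183A and its retrocopy TMEM183B, had equal counts at all 5 of its positions.

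The median shared position also held more reads than the median of other guides. Abundance was taken as log2 of bottom plus top counts over the same sum for the median non-targeting guide. The 297 positions with 2 genes and 2 entries of equal counts, taken without a filter on counts, had a median of 1.03, or 2.04-fold the non-targeting median. Of these, 252 lay above that median. The 5 BAGE positions, with 3 genes and 3 entries, had a median of 1.93. Positions with 1 entry had a median of -0.01 (n = 89108), and the unshared guides of the same gene starts had a median of -0.04 (n = 285). Positions listed under 2 starts of a single gene were also high, at 1.09 (n = 55). Positions with 1 entry in a sublibrary and another entry in a different sublibrary were not, at 0.01 (n = 982). The median was thus raised by about the same amount where the entries named 1 gene as where they named several. Because each entry holds the full count, repeat entries added 0.205% of the bottom total in H1 and 1.38% in H7. These shares cover all repeated positions, those under 2 starts of 1 gene included. In H1 the repeats came to 46603 bottom counts, of which the 1 shared position gave 2848.

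The gene sets were of several kinds, by the chromosomes, strands and starts of the RefSeq table. A symbol was found there for 171 of 176 genes, 18 of them under an older symbol. Readthrough genes, whose transcripts join neighbouring genes, made up 16 sets with 66 positions, and in 10 of the 13 with a known distance both starts were the same base. Other neighbours on the same strand made up 21 sets with 105 positions. Divergent neighbours made up 19 sets with 32 positions, with starts 26 to 14850 bases apart and a median of 177. In 9 sets with 17 positions the genes lay on opposite strands with starts that do not face apart, 2 sets with 6 positions had genes on different chromosomes, and 21 sets with 79 positions were not placed, because a start was not found in the table. All guides of every gene were shared in 24 sets with 129 positions, while 19 sets shared a single position.

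Most shared positions lay within the fold in either direction. Of the 305, 304 had at least 50 counts in either library. The one left out lay at URGCP and URGCP-MRPS24, with 46 bottom and 30 top counts. The median log2 ratio of the 304 was -0.01 with an SD of 0.278 over positions. The fold was passed upward by 9 positions, or 2.96%, against 4.93% of all 89104 targeting positions. It was passed downward by 6 positions, or 1.97%, against 3.73% of all targeting positions. Among 1619 non-targeting guides 3.15% passed it upward and 2.59% downward. In either direction 15 shared positions passed, or 4.93%, against 8.65% of all targeting positions. A log2 ratio of 1 was passed by 5 positions, or 1.64%, against 1.95%, with 2 of them upward (0.658% against 1.29%) and 3 downward (0.987% against 0.662%). These shares were not tested against each other.

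By kind of gene set, 0 of 32 divergent positions and 0 of 17 positions of the other opposite-strand genes passed the fold. Their SDs were 0.151 and 0.178. Over all shared positions 4.93% passed in either direction, and over all targeting positions 8.65%, so few would be looked for among so few positions. The readthrough positions had an SD of 0.252, with 3 above and 1 below the fold. The same-strand neighbours had an SD of 0.313, with 4 above and 3 below. Those above were in KCTD7 with RABGEF1 and MS4A14 with MS4A7, and those below were all in DCAF8 with PEX19. The unplaced sets had an SD of 0.305, with 2 above and 1 below. The kinds were not tested against each other. Of the divergent pairs, MGAT4B, an N-glycan branching enzyme, and SQSTM1, the autophagy receptor p62, shared 4 positions. These ran from -0.13 to 0.17, with 2147 to 4868 bottom counts and 2252 to 6265 top counts.

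A target, the guides of 1 gene at 1 labelled start, was tested against the non-targeting guides of its sublibrary by a two-sided permutation test, with Benjamini-Hochberg adjustment over all 18116 targets. Of the 181 targets that hold a shared guide, 6 passed an adjusted p of 0.05, which is 3.31% against 3.8% of all targets. Upward calls were 4, or 2.21% against 2.32% of all targets. Downward calls were 2, or 1.1% against 1.48%. These 6 rest on 4 distinct guide sets, because 79 of the 181 targets hold exactly the guides of another target. An unadjusted p under 0.05 was reached by 18 of the 181, or 9.94%, against 12.1% of all targets.

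The largest downward shift was measured at the guides that stand under both PEX19 and DCAF8 in H3. PEX19 is the cytosolic receptor and chaperone for peroxisomal membrane proteins, and DCAF8 is a substrate receptor of CUL4 ubiquitin ligases. The guide at position 160254859 had 5876 bottom and 2611 top counts. The guide at 160254871 had 6793 and 2958 counts. The guide at 160254880 had 8077 and 3536 counts. These 3 neighbouring guides were less frequent in bright cells alike, with log2 ratios of -1.37, -1.40 and -1.39. The guide at 160254921 had 5547 bottom and 4647 top counts and a log2 ratio of -0.45. The guide at 160254932 had 2778 and 3407 counts and lay at 0.10, on the other side of 0. The mean was -0.90 ± 0.69 (SD, n = 5 guides), with a permutation adjusted p of 0.000673, the smallest the draws could give. As the same 5 guides are all the guides of PEX19 and all those of the first start of DCAF8 (P1), both names received this call.

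DCAF8 has a second set of guides that PEX19 does not share, at its second start (P2). Its 5 guides lay between 0.11 and 0.32, with a mean of 0.22 ± 0.08 (SD, n = 5 guides) and a permutation adjusted p of 0.241. All 5 were on the opposite side of 0 from the mean of the shared guides, and the ranges did not overlap. The lowest of the 5 was 0.11, and the highest shared guide was 0.10. The difference between shared and own guides of DCAF8 was -1.12. The guide sets lay 22654 bases apart in position number, and the RefSeq starts of PEX19 and DCAF8 lie 22584 bases apart. PEX19 has no guides of its own, so no comparison of this kind was possible for it.

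Guides under KCTD7 and RABGEF1 in H3 were enriched in bright cells. RABGEF1, also called Rabex-5, is an exchange factor that activates RAB5 on early endosomes, and KCTD7 is a BTB-domain protein that works with CUL3 ubiquitin ligases. The guide at position 66205722 had 3400 bottom and 5490 top counts. The guide at 66205731 had 2508 and 4431 counts. The guide at 66205934 had 3958 and 6938 counts. These 3 guides had log2 ratios of 0.50, 0.62 and 0.61. The guide at 66206124 had 2936 and 4240 counts and a log2 ratio of 0.33. The guide at 66205739 had 2686 and 3135 counts and lay at 0.03. All 5 were on the bright side, and the mean was 0.42 ± 0.25 (SD, n = 5 guides) with a permutation adjusted p of 0.00322. The genes lie on the same strand with RefSeq starts 25686 bases apart, and neither has a guide of its own in the library. Which of the starts the guides lie at was not determined, and the value cannot be assigned to either gene.

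HSPE1 and the readthrough gene HSPE1-MOB4 shared 3 of their 5 guides each in H3. HSPE1 encodes the mitochondrial co-chaperonin HSP10, and MOB4 is a subunit of the STRIPAK phosphatase complex. The shared guide at position 198365304 had 2288 bottom and 4807 top counts and a log2 ratio of 0.87. The shared guide at 198365586 had 2529 and 3872 counts and a log2 ratio of 0.42. The shared guide at 198365230 had 1322 and 1707 counts and a log2 ratio of 0.17. All 3 were more frequent in bright cells. The own guides of HSPE1 were also on the bright side, at 0.59 (578 and 998 counts) and 0.18 (1043 and 1350 counts). The own guides of HSPE1-MOB4 were not, at -0.33 (643 and 587 counts) and -0.04 (1157 and 1289 counts). HSPE1 passed the test, with a mean of 0.45 ± 0.30 (SD, n = 5 guides) and a permutation adjusted p of 0.00322. HSPE1-MOB4 did not, with a mean of 0.22 ± 0.46 (SD, n = 5 guides) and a permutation adjusted p of 0.284. The RefSeq starts of both are the same base, and whether the means of the 2 targets differ was not tested.

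Neighbours of HSPE1 and HSPE1-MOB4 did not pass the test. HSPD1, which encodes the chaperonin HSP60 and starts on the other strand of the same interval, had 5 guides between 0.11 and 0.45 in H3. Its mean was 0.23 ± 0.13 (SD, n = 5 guides), with a permutation adjusted p of 0.219. MOB4 was read in another sort, that of H2, where its 5 guides lay between -0.11 and 0.28. Its mean was 0.04 ± 0.19 (SD, n = 5 guides), with a permutation adjusted p of 0.967.

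RBM14 and RBM4, neighbouring genes for RNA-binding proteins that act in splicing and transcription, shared 3 guides in H5. The shared guide at position 66384117 had 2973 bottom and 3270 top counts and a log2 ratio of 0.44. The shared guide at 66384109 had 5040 and 5455 counts and a log2 ratio of 0.42. The shared guide at 66384539 had 1665 and 1243 counts and lay at -0.12. The first start of RBM4 (P1) passed through these and its own guides of higher value. Those were the guide at 66384112, with 716 and 1161 counts and a log2 ratio of 1.00, and the guide at 66384103, with 1056 and 1577 counts and a log2 ratio of 0.88. The mean of RBM4 P1 was 0.53 ± 0.44 (SD, n = 5 guides), with a permutation adjusted p of 0.00576. RBM14 had own guides at 0.47 and 0.32, and a mean of 0.31 that did not pass (permutation adjusted p = 0.168). At the second start of RBM4 (P2), which RBM14 does not share, the 5 guides lay between 0.15 and 0.78 with a mean of 0.38 ± 0.25 (SD, n = 5 guides) and a permutation adjusted p of 0.0654. The RBM4 guide sets lay 22207 bases apart in position number, and the RefSeq starts of RBM14 and RBM4 lie 22073 bases apart.

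The same positions were sorted again in H7, where the readthrough gene RBM14-RBM4 is listed. The position 66384117 gave 0.57 there, from 2956 bottom and 4509 top counts. The position 66384539 gave -0.23, from 495 and 435 counts. The position 66384109 gave 1.31, but from only 82 and 211 counts. The other positions of RBM4 P1 were on the bright side in both sorts, with 0.88 in H5 and 0.55 in H7 at 66384103 and with 1.00 and 0.72 at 66384112. At the second start, position 66406199 gave 0.78 and 0.70, and 66406629 gave 0.15 and 0.04. RBM14-RBM4 P1 had a mean of 0.59 ± 0.55 (SD, n = 5 guides) with a permutation adjusted p of 0.0323. Without its guide with the fewest counts the mean was 0.40 and the permutation adjusted p 0.295, an alternative chosen after seeing the data.

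COMMD3 and the readthrough gene COMMD3-BMI1 shared all 5 guides in H7, and their spread was small. COMMD3 belongs to the COMMD proteins of the Commander complex, which returns membrane proteins from endosomes to the cell surface, and BMI1 is a subunit of Polycomb repressive complex 1. The guide at position 22605349 had 2478 bottom and 1955 top counts and a log2 ratio of -0.38. The guide at 22605401 had 4128 and 3273 counts and a log2 ratio of -0.37. The guide at 22605416 had 2336 and 1854 counts and a log2 ratio of -0.37. The guide at 22605335, with 6069 and 4925 counts, and the guide at 22605396, with 5940 and 5361 counts, lay at -0.34 and -0.19. All 5 were on the dim side, with a mean of -0.33 ± 0.08 (SD, n = 5 guides). The permutation test, which sets the mean against the wide non-targeting spread of H7, gave an adjusted p of 0.334. With edgeR's quasi-likelihood model, which weighs a target by the spread over its own guides, the adjusted p was 0.0271, and with the exact rank-sum test it was 0.0334. BMI1 alone, read in H3, had guides on both sides of 0, from -0.39 to 0.20.

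The highest shared position stood apart from every other guide of its genes. SLC20A2, which encodes a sodium-dependent phosphate transporter, and its neighbour SMIM19 shared 2 guides in H6. The guide at position 42396831 had 415 bottom and 2120 top counts and a log2 ratio of 1.96, with an interval from 1.81 to 2.11. The other shared guide, at 42396804, had 2439 and 3341 counts and lay at 0.06. The own guides of SLC20A2 lay between -0.26 and 0.19, and those of SMIM19 between -0.60 and 0.09. The mean of SLC20A2 was 0.37 ± 0.90 (SD, n = 5 guides; permutation adjusted p = 0.199), and without shared guides it was -0.05. The mean of SMIM19 was 0.26 ± 0.99 (SD, n = 5 guides; permutation adjusted p = 0.437), and without shared guides it was -0.24.

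The remaining upward positions were in sets whose other guides lay within the fold. ZNF700 and ZNF763, zinc finger genes that share all 5 guides in H5, had 742 bottom and 1311 top counts at position 12035985, a log2 ratio of 1.12. Their other 4 guides lay between -0.36 and 0.10. MS4A14 and MS4A7, which encode membrane-spanning 4-domain proteins, had 228 and 497 counts at 60146045 and 765 and 1440 counts at 60146083 in H6. These guides had log2 ratios of 0.73 and 0.52, and the other 3 lay between -0.07 and 0.07. ANKHD1, an ankyrin repeat gene, and its readthrough with the translation repressor EIF4EBP3 had 2032 and 2533 counts at 139781432 in H5. This guide had a log2 ratio of 0.62, and the other 4 lay between -0.06 and 0.23. PTGES3L and PTGES3L-AARSD1 had only 36 bottom and 53 top counts at 41132152 in H7, a log2 ratio of 0.51 with an interval from -0.12 to 1.17. The tenth position by height with at least 50 counts in both libraries, after another guide of KCTD7 and RABGEF1, was 193130 of SCGB1C1 and LOC653486 in H7, at 0.45 (992 and 1397 counts).

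Outside PEX19 and DCAF8, 3 positions passed the fold downward, each with 1 guide of its set. TMEM183A and TMEM183B had 410 bottom and 309 top counts at 202976487 in H6, a log2 ratio of -0.80. Their other 4 guides lay between -0.01 and 0.19. LUC7L2, a splicing factor of the U1 snRNP, and C7orf55-LUC7L2 had 5873 and 3892 counts at 139044690 in H7, a log2 ratio of -0.63. Their mean was -0.26 ± 0.26 (SD, n = 5 guides), with 4 of 5 guides below 0, of which the other 3 lay between -0.26 and -0.25, and a permutation adjusted p of 0.518. DEFA1B and DEFA3, genes for neutrophil alpha-defensins, had 2768 and 1915 counts at 6875641 in H7, a log2 ratio of -0.57, and their other 3 guides lay between -0.09 and 0.01. The remaining low positions were within the fold, among them the lowest of COMMD3 at -0.38. MEF2BNB, now named BORCS8 and a subunit of the BORC complex that positions lysosomes, and its readthrough with MEF2B had 2347 and 1438 counts at 19302936 in H5, a log2 ratio of -0.40. That position gave 0.13 in H7, where it is listed under MEF2B with 2937 and 3296 counts. LCE2B and LCE2C, genes of the cornified envelope of skin, had 161 and 126 counts at 152648164 in H7, a log2 ratio of -0.39.

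Sets that share every guide can be read only as a unit, and most had means near 0. After KCTD7 with RABGEF1, the highest means among them were those of MS4A14 with MS4A7, at 0.25 ± 0.35, and of ANKHD1 with ANKHD1-EIF4EBP3, at 0.21 ± 0.25. ZNF700 with ZNF763 had 0.13 ± 0.59, and ARMCX5 with ARMCX5-GPRASP2 had 0.09 ± 0.13 (each an SD over 5 guides). GPRASP2 encodes a sorting protein associated with G protein-coupled receptors. After COMMD3, the lowest were DEFA1B with DEFA3, at -0.18 ± 0.27 over 4 guides, and the homeobox genes HOXC5 with HOXC6, at -0.12 ± 0.10 over 5 guides. TMEM183A with TMEM183B had -0.12 ± 0.39 over 5 guides. HSPA1A and HSPA1B, which encode near-identical heat-inducible HSP70 proteins, shared 10 guides in H3 with a mean of -0.10 ± 0.09, and 8 of the 10 lay below 0.

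For 67 genes with at least 2 shared and 2 own guides, the shared and own guides of the same gene could be set against each other. The median difference, shared minus own, was -0.02, and the median absolute difference was 0.10. In 1 of them, LOC100133267, the 5 own guides had the counts of the shared ones, so its difference was 0 by construction, and the medians over the other 66 were also -0.02 and 0.10. A difference past 0.5 was found in 4 genes. These were SMIM19 at 1.25, SLC20A2 at 1.05, HSPE1-MOB4 at 0.67 and DCAF8 at -1.12. The next were BGN, the extracellular matrix proteoglycan biglycan, at -0.35 and CCDC169 at -0.31. Both SMIM19 and SLC20A2 hold the guide at 42396831. In 15 of the 67 genes all own guides belonged to another labelled start, as in DCAF8.

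Positions listed in more than 1 sublibrary show how far a guide's value holds in a separate sort. On the same chromosome, 470 such pairs of 448 positions were measured, 10 of them at shared positions. The difference between the sorts had an SD of 0.363, or 0.257 per guide and sort. With at least 200 counts in either library, the SD of the difference was 0.327 over 449 pairs. The SD of 0.278 over the shared positions covers guides with more reads at the median (abundance 1.03 against 0.01), so these SDs are not like for like. Of the 470 pairs, 413 differed by less than 0.5 and 277 had the same sign. Pearson's r was 0.55 and Spearman's rho 0.28 over these 470 pairs, as a description across guides, which are not independent samples. Where the value passed 0.5 in the first sublibrary, in 40 pairs, 33 had the same sign in the second. Of the 40, 23 passed 0.5 again, 22 of them with the same sign, and 26 differed by less than 0.5. With genes not found in RefSeq included, 24 shared positions were sorted more than once. Of these, 20 differed by less than 0.5, and 16 had the same sign. ERCC6, a DNA repair gene, and PGBD3, a transposase-derived gene on the same strand, had 5 guides between -0.30 and 0.05 in H2. In H7, under ERCC6-PGBD3, 4 of them lay between -0.21 and 0.20, and the guide at 50747060 lay at -0.85 with only 57 bottom and 32 top counts.

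For the lists drawn up for this screen, the genes with shared guides were counted. Over all tested targets, which are not the same unit as genes, 181 of 18116 held a shared guide. No list was tested against that share. Lists were formed by the start of the symbol. Of 108 cytosolic and mitochondrial ribosomal protein genes only RPL22 had any, with 3 positions between -0.11 and -0.01. Of 25 V-ATPase genes, whose products acidify lysosomes, only ATP6V1E2 did, with 2 positions at 0.02 and 0.34. Of 100 vesicle sorting genes CHMP4A and SNX15 did, with 8 positions between -0.16 and 0.29. RABGEF1, whose 5 shared positions lay between 0.03 and 0.62, was not counted in this list. Of 49 proteasome genes 0 did. Of 70 histone genes 10 did, with 11 positions between -0.25 and 0.38. The 14 zinc finger genes among 500 had 36 positions, with a median of 0.05 and 1 position past the fold, that of ZNF700 and ZNF763. PCDHB9 and PCDHB10, 2 of 64 protocadherin genes, had 4 positions between -0.23 and 0.04. The 71 keratin-associated genes and the 2 UGT1A symbols had none.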

How the data were processed

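The authors deposited 1 table of whole-number counts per guide for each library, with no normalization. Bowtie is named per the submitters' processing notes, without a version; the genome build was not given in the sources used here. H4 and guide sequences were not analysed here. Samples were grouped by sublibrary and quartile from the labels' titles. Depth is given with the results.

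A pseudocount of 1 was added, shares of the library total were taken, and the log2 ratio of top to bottom was set to 0 at the sublibrary's non-targeting median (Python 3.11.15, numpy 2.4.6, pandas 2.3.3, scipy 1.17.1). Guides needed at least 50 counts in one of the libraries, and targets at least 3 such guides. Each target mean was set against 100000 draws from its own and the non-targeting guides; the smallest p was 1e-05. edgeR 4.0.16 (R 4.3.3), with guide as a block, was run only as an alternative, for the 17071 targets of 5 guides, since 1 library per group leaves no replicates. On simulated counts of top against bottom in the 6 sublibraries the permutation test, on 18117 targets, called 100 of 100 targets changed by 1.0 on the log2 scale, 67 of 100 changed by 0.5 and 2 of 17917 unchanged. For edgeR, with 17010 targets, these were 100 of 100, 65 of 97 and 12 of 16813. The simulation gave every guide noise of the non-targeting SD and all guides of a changed target the same shift. In the data targeting guides spread more widely, in H3 with an SD of 0.322 against 0.215 for non-targeting guides. The simulated counts therefore give no error rate for targets with uneven guides.

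Named genes were RABGEF1 and KCTD7, the sets with a called target, the 10 highest and 10 lowest positions with at least 50 counts in both libraries, the 5 highest and 5 lowest sets that share all guides, and the 6 largest differences between shared and own guides. MGAT4B, SQSTM1, PTGES3L, ERCC6, PGBD3, URGCP, the BAGE genes, RBFOX2, U2AF1L4 and the neighbours HSPD1, MOB4 and BMI1 were added after their values were seen, or to complete a count. The members, lists and alternatives were chosen with earlier results of these data known. The alternatives changed the pseudocount, filter, scaling, fold, test and adjustment, counted shared reads once, or left out guides.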

Additional observations from a re-analysis of the deposited data

How the results depend on the processing

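With the fold at 1 on the log2 scale, 2 shared positions passed upward and 3 downward. Under the other 9 settings tried, these counts stayed between 8 and 9 upward and between 5 and 7 downward. The 6 called targets with a shared guide became 2 without the guide farthest from 0 in each target. Without shared guides 65 targets kept at least 3 guides, and 0 of them were called. The 6 called targets were not among these 65, because at least 3 of the 5 guides of each are shared. This setting therefore does not test their calls. Under the other 12 settings 4 to 7 targets with a shared guide were called. Those that change only the centring or scaling, or count shared reads once, move all ratios of a sublibrary by a constant or not at all. The permutation p then stays the same by construction, so they are no check of a call. edgeR's quasi-likelihood test called 4 of 176, KCTD7, RABGEF1, COMMD3 and COMMD3-BMI1, against 244 of 17071 targets, where the permutation test called 689 of 18116. Wilcoxon's rank-sum test, exact, called 5 of 181 and 493 of 18116, and the test without the farthest guide called 305 of 18046.

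PEX19 and DCAF8 P1 passed under 11 of 13 settings (adjusted p 0.102 by rank sum, 0.0722 by edgeR), KCTD7 and RABGEF1 under 12 (0.0783 without the farthest guide). HSPE1 passed under 11 (0.125 without the farthest guide, 0.0874 by edgeR) and RBM4 P1 under 10 (0.200 without the farthest guide, 0.166 by rank sum, 0.169 by edgeR). These numbers of settings include the changed centring and scaling and the reads counted once, where the permutation p could not change. COMMD3 and COMMD3-BMI1 passed under only 2 of 13, edgeR (0.0271) and rank sum (0.0334). Their permutation adjusted p was 0.689 with adjustment within each sublibrary and 0.9999 without the farthest guide. RBM14 passed under only 1 of 13, the median over guides (0.0407). Without the farthest guide the means of SLC20A2 and SMIM19 turned to -0.0204 and -0.17, and without shared guides to -0.0469 and -0.24. No paired analysis was possible because each group holds 1 library. A change confined to 1 sort cannot be told from a change in the cells, and at the SD of 0.257 per guide and sort a single guide's shift of 0.5 has no check where the position was sorted once.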

Other observations

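Equal counts also occurred at different position numbers, in a search added after seeing the data over entries with at least 200 bottom counts. In 66 gene pairs of 108 genes, at least 2 positions of one gene had the bottom and the top count of a position of the other, and in 57 pairs at least 3 had. Only 1 of the 66 pairs, DEFB130 with LOC100133267, also shares a position number. The complement genes C4A and C4B in H1 and the creatine kinase genes CKMT1A and CKMT1B in H1 had 5 such positions each. A further 276 pairs had exactly 1, where equal counts can also arise without a shared guide.

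BOLA2 and SLX1B, divergent neighbours, and BOLA2B and SLX1A, their copies elsewhere in the genome, joined both patterns in H5. The entries of BOLA2 and SLX1B at 29465937 had 4005 bottom and 2821 top counts, and so did those of BOLA2B and SLX1A at 30205279. The entries of BOLA2 and SLX1B at 29465914 had 7146 and 5718 counts, as did those of BOLA2B and SLX1A at 30205256. Each measurement thus stood under 4 gene names, with log2 ratios of -0.20 and -0.02.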
